A study of Mus musculus with 2 samples.

Results

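Described here are 10 genes that control passage through the G1 phase: the CDK inhibitor genes Cdkn1a, Cdkn1b, Cdkn2a and Cdkn2c, the D-type cyclin genes Ccnd1, Ccnd2 and Ccnd3, their kinase partner Cdk4, and the p53 gene Trp53 with its ubiquitin ligase gene Mdm2. They were taken by symbol from the 52550 Ensembl genes of the deposited counts, and all 10 were found. The cells are RAW264.7, macrophage-like cells from a tumour that the Abelson leukaemia virus induced in a mouse. They were kept untreated in 3D culture or in 2D culture, with 1 RNA-seq library of polyadenylated RNA for each, and the labels name no engineered allele. The making of the 3D culture is not described in the sources used here. RAW264.7 is an established tumour line, so its G1 control need not match that of primary macrophages.

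D-type cyclins bind CDK4 or CDK6, and the active kinase phosphorylates the retinoblastoma protein, which releases E2F factors and lets a cell enter S phase. The INK4 inhibitors (p16 from Cdkn2a, p15 from Cdkn2b, p18 from Cdkn2c and p19 from Cdkn2d) bind CDK4 and CDK6, while the CIP/KIP inhibitors (p21 from Cdkn1a, p27 from Cdkn1b, p57 from Cdkn1c) bind cyclin and CDK complexes and act most strongly on CDK2. p53 switches on Cdkn1a and also Mdm2, whose product marks p53 for degradation, so p53 and Mdm2 form a feedback loop that the ARF product of Cdkn2a interrupts. In macrophages, M-CSF induces Ccnd1, and p21 is known to accompany arrest and survival.

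Cdkn1a and Ccnd3 were at least 2-fold higher in 3D culture than in 2D culture, Cdkn1b and Ccnd2 were at least 2-fold lower, 5 genes lay between, and Cdkn2a had no reads in either. With 1 library for each culture method replicate spread is unknown and no test was run. Intervals are exact, at 95%, and cover counting error alone. They treat each read as an independent molecule, but the reads carry no molecular identifiers and are not independent molecules, so the intervals may be too narrow. Of 11673 genes with a mean of at least 1 TMM-scaled count per 1000000 (CPM), 18.7% were at least 2-fold higher in 3D culture and 20.8% at least 2-fold lower. Of the 9 measured genes described here, 2 were higher and 2 lower, which is near those shares. Scaled by total counts instead, 1 was higher and 3 lower, beside 5.59% and 36.5% of all genes. Under TMM the median log2 ratio of the 9 genes was 0.38, beside 0.05 over all measured genes.

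**Figure D1:**
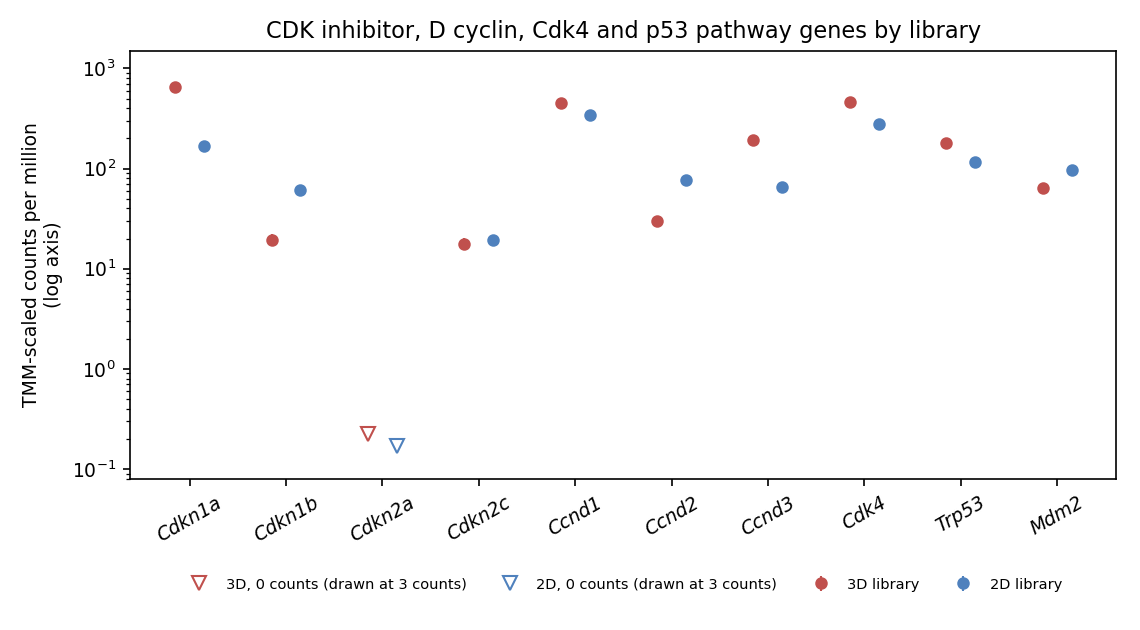
TMM-scaled counts per 1000000 (log axis) of the 10 genes, with the 3D library in red and the 2D library in blue and 95% Poisson counting intervals that are mostly smaller than the points. Cdkn1a stands at 649 CPM in 3D culture and 167 CPM in 2D culture, Cdkn1b at 19.5 and 60.5 CPM, and Cdkn2a, with 0 counts, is drawn as an open triangle at the level of 3 counts.

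The libraries held 16652503 counts (3D) and 14371084 counts (2D). All 10 macrophage markers examined were present in both, from 5.32 to 3537 CPM in 3D culture and from 7.75 to 1349 CPM in 2D culture. The 6 hepatocyte markers summed to 319 counts in 3D culture and 10 in 2D culture, led by Alb with 232 and 8, and their part in the results was not tested. In such bulk RNA, fewer cells of a type and less RNA per cell cannot be told apart. The 23 markers of fibroblasts, T cells, B cells, epithelium and endothelium summed to 68 and 67 counts, and 9 of them, among them Cd3e and Col3a1, were at 0 in both libraries. The ratio also ran with transcript composition: over 10 bins of protein-coding genes ordered by GC content, the median log2 ratio was -1.28 in the lowest bin and 0.96 in the highest. A fit on GC content, exon length and level took up 45.0% of its variance. Most ratios are therefore also given as a log2 ratio after adjustment for these 3 properties, a step that removes any biological difference that runs along them. After it, 11.7% of genes were past 2-fold upward and 8.73% downward, and 0 of the 9 genes passed 2-fold in either direction. No difference from those shares is read from so few genes. The median of the 9 genes was -0.38, beside 0.08 over all genes.

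Of the CIP/KIP genes, Cdkn1a was the more abundant and the one that was higher in 3D culture. Cdkn1a (ENSMUSG00000023067, mm10 chromosome 17, 29090976 to 29100727) encodes p21, which halts the cycle downstream of p53 and also binds the replication clamp PCNA. It had 8782 counts in 3D culture and 2954 in 2D culture. After TMM scaling, on which all ratios rest, these were 649 and 167 CPM, a ratio of 3.89 (3.73 to 4.05). That ratio was above those of 97.5% of measured genes. The adjusted log2 ratio was 0.77, below 2-fold and above 82.8% of genes. Per kilobase of exon Cdkn1a ranked first among the 10 genes in 3D culture, at 183 CPM per kilobase, and the third in 2D culture, at 47.0 CPM per kilobase.

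Cdkn1b (ENSMUSG00000003031, chromosome 6, 134920401 to 134925513) encodes p27, a CDK2 inhibitor that holds cells in quiescence and is removed by the SKP2 ubiquitin ligase. It had 264 counts in 3D culture and 1070 in 2D culture (19.5 and 60.5 CPM) and was 3.10-fold lower in 3D culture (2.71 to 3.56). The adjusted log2 ratio was -0.91, the same direction but short of 2-fold. The transcripts differ in the property that ran with the ratio, with a GC content of 54.4% for Cdkn1a and 43.1% for Cdkn1b. The ratio of the 2 genes within a library needs no scaling between libraries. There were 33.3 Cdkn1a counts for each Cdkn1b count in 3D culture and 2.76 in 2D culture, a 12.0-fold shift (10.4 to 13.9), or 3.21-fold after the adjustment.

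The promoters of these genes are shown because the pair stood on opposite sides of the comparison and because Cdkn1a is a textbook p53 target. Each line holds the 250 bases before an annotated start, 5′ to 3′ on the gene's strand, from RefSeq on GRCm38.p6 (mm10). Capitals mark the GC box GGGCGG on either strand and the full p53 site, which is a pair of adjacent p53 half-sites with at most 1 mismatch in all. RefSeq windows were found for 8 of the 10 genes; Ccnd1 and Ccnd2 had none.
Cdkn1a, upstream start, chr17:29090729-29090978, plus strand: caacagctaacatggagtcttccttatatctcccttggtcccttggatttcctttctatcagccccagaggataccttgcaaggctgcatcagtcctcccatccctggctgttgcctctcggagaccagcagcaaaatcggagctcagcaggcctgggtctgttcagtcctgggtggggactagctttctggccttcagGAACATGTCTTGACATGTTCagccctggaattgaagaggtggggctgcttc
Cdkn1a, downstream start, chr17:29093519-29093768, plus strand: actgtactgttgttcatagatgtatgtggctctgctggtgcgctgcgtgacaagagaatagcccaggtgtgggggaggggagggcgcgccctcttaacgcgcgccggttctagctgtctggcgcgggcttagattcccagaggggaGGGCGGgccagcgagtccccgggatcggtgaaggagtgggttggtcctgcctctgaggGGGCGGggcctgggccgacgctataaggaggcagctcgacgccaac
Cdkn1b, chr6:134920151-134920400, plus strand: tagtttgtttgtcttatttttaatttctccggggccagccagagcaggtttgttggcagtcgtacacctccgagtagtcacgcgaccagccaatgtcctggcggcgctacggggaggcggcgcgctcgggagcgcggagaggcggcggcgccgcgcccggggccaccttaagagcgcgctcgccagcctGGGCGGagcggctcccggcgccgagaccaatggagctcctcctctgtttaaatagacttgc

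The upstream Cdkn1a window held 2 p53 half-sites and no GC box. Of these half-sites, 1 is the first part of a full p53 site that begins 51 bases before the start. The second part of that site holds the 1 mismatch allowed, a T at its first base. Of 32851 RefSeq windows of this length, 25 (0.0761%) held a full p53 site and 32.7% a GC box. The other 11 windows of these genes held no full p53 site; a single p53 half-site, present in 7.13% of all windows, was found once each in the windows of Trp53 and Mdm2. The downstream Cdkn1a window held 2 GC boxes and 19 CpG dinucleotides, and the Cdkn1b window 1 GC box and 28 CpG dinucleotides, beside a median of 6 CpG dinucleotides over all windows. A match describes letters and says nothing of binding. Sequence outside these windows was not searched, so a p53 site elsewhere in or near a gene would be missed.

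Of the INK4 genes, Cdkn2c and Cdkn2d each stood at near equal levels in the 2 libraries under TMM scaling, and Cdkn2a and Cdkn2b had no reads. Cdkn2c (ENSMUSG00000028551, chromosome 4, 109660876 to 109667189), which encodes p18, had 239 counts in 3D culture and 342 in 2D culture (17.7 and 19.3 CPM). The ratio was 0.91 under TMM scaling, with an interval that spans 1 (0.77 to 1.08). The log2 ratio of Cdkn2c was -0.73 under total counts, -0.79 under scaling by 22 reference genes and -0.84 after adjustment. Cdkn2d, which encodes the INK4 protein p19 and is not among the 10 genes, had 443 and 598 counts (ratio 0.97, 0.85 to 1.10), with an adjusted log2 ratio of -0.98. These genes have GC-rich transcripts, 58.0% for Cdkn2c and 55.8% for Cdkn2d, and the adjustment moved both down.

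Cdkn2a (ENSMUSG00000044303, chromosome 4, 89274471 to 89294653) encodes the CDK4 inhibitor p16 and, from another first exon, ARF, which binds MDM2. Of 16652503 counts in 3D culture 0 fell on it, which allows up to 0.18 counts per 1000000, and of 14371084 in 2D culture 0, which allows up to 0.209. Its neighbour Cdkn2b, 11.6 kb away, also had 0 counts in both libraries, as had Cdkn1c on chromosome 7. Having no count in either library is common, and was found for 37.5% of 21819 protein-coding genes. Among 40 protein-coding genes within 1000 kb of Cdkn2a, itself included, 35 had no counts, and 17 of those carry an interferon symbol (Ifn). The nearest one with counts, looked up after the values were seen, was Mtap, a methionine salvage enzyme gene 93.4 kb away, with 658 counts in 3D culture and 1276 in 2D culture.

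Because both products of Cdkn2a were without reads, its promoters are also shown, with capitals as above. The ARF start lies upstream on the minus strand and the p16 start downstream of it.
Cdkn2a, upstream start, chr4:89294620-89294869, minus strand: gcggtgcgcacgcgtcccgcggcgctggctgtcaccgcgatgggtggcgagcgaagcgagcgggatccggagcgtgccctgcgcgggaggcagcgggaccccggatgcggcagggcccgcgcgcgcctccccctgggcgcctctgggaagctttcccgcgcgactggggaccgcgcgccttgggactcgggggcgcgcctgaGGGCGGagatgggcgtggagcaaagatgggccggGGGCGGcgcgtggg
Cdkn2a, downstream start, chr4:89282193-89282442, minus strand: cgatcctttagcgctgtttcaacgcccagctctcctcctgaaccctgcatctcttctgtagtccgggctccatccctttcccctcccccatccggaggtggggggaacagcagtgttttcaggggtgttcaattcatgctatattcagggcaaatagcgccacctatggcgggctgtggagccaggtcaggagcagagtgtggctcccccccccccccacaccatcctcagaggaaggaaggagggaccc

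The upstream Cdkn2a window held 40 CpG dinucleotides in 250 bases, more than 98.7% of all windows, at a GC content of 78.4%. The downstream window held 7 at a GC content of 60.0%. DNA methylation and copy number were not measured in these libraries.

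Together the 4 inhibitor genes held 9285 counts in 3D culture and 4366 in 2D culture, a 2.78-fold higher CPM in 3D culture under TMM scaling (2.68 to 2.88). That ratio depends on the scaling: relative to TMM, total counts shift every log2 ratio by -0.60 and reference genes by -0.66. Cdkn1a made up 94.6% of the summed counts in 3D culture (lower Wilson 95% bound 94.1%) and 67.7% in 2D culture (Wilson 95% interval 66.3% to 69.0%). Cdkn1b made up 2.84% in 3D culture (2.52% to 3.20%) and 24.5% in 2D culture (23.3% to 25.8%). These shares do not depend on the scaling between libraries, but they were not adjusted for GC content, exon length or level. Counted per kilobase of exon, the share of Cdkn1a was 94.4% in 3D culture and 69.6% in 2D culture. Per kilobase of the principal transcript, a measure chosen after seeing the data, it was 96.5% and 79.2%, and that of Cdkn1b 1.33% and 13.1%. With Cdkn2d, Cdkn2b and Cdkn1c included, Cdkn1a made up 90.3% of the counts in 3D culture and 59.5% in 2D culture.

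**Figure D2:**
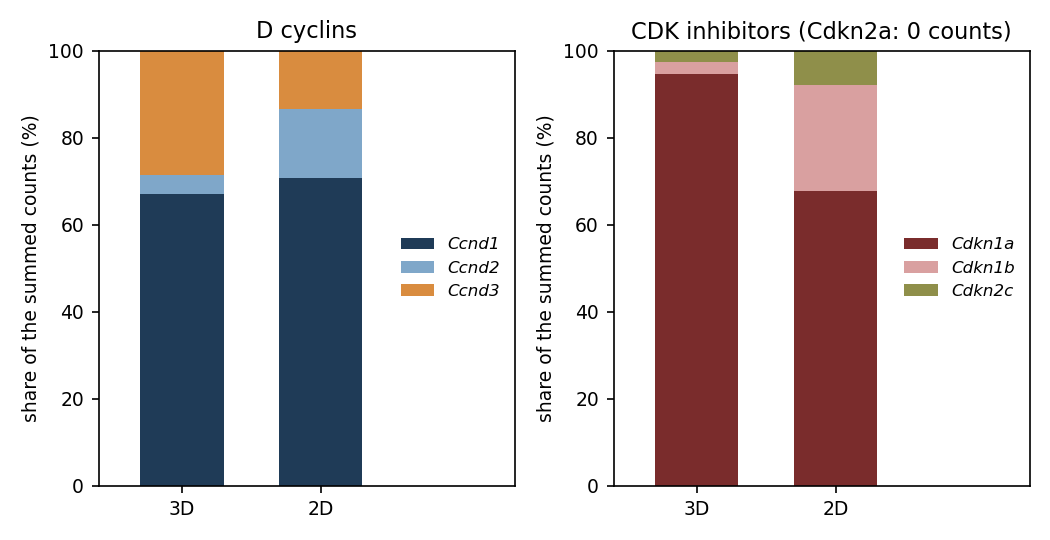
Share of each gene in the summed counts of its family, in percent, with the 3D library left of the 2D library for the D cyclins and for the CDK inhibitors. Cdkn1a fills 94.6% of the inhibitor counts in 3D culture and 67.7% in 2D culture, and Ccnd3 fills 28.6% of the D cyclin counts in 3D culture and 13.5% in 2D culture. The shares are not adjusted for GC content, exon length or level.

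Among the D cyclins, Ccnd1 was the most abundant in both libraries, and Ccnd2 and Ccnd3 differed in opposite directions. Ccnd3 (ENSMUSG00000034165, chromosome 17, 47505051 to 47599691), a D cyclin prominent in blood cells, had 2585 counts in 3D culture and 1161 in 2D culture (191 and 65.6 CPM). Its ratio was 2.91 (2.71 to 3.12), its log2 ratio 0.94 under total counts and 0.88 under reference genes, and its adjusted log2 ratio 0.82. Each of those 3 alternatives kept the direction and ended the 2-fold call. Ccnd2 (ENSMUSG00000000184, chromosome 6, 127125162 to 127152193), induced by mitogens in lymphoid and many other cells, had 406 and 1368 counts (30.0035 and 77.4 CPM) and was 2.58-fold lower in 3D culture (2.31 to 2.89), with an adjusted log2 ratio of -0.92. Within a library, there were 6.37 Ccnd3 counts for each Ccnd2 count in 3D culture and 0.85 in 2D culture, a 7.50-fold shift (6.57 to 8.57) that was 3.35-fold after the adjustment.

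Ccnd1 (ENSMUSG00000070348, chromosome 7, 144929931 to 144939925), the D cyclin that growth factors induce in most cells, had nearly equal raw counts, 6063 in 3D culture and 6096 in 2D culture (448 and 345 CPM). Its ratio was 1.30 (1.25 to 1.35) under TMM scaling, while its log2 ratio was -0.22 under total counts, -0.28 under reference genes and -0.38 after adjustment, so no direction is given for it. It made up 67.0% of the D cyclin counts in 3D culture (66.0% to 67.9%) and 70.7% in 2D culture (69.7% to 71.6%). Ccnd2 made up 4.48% (4.08% to 4.93%) and 15.9% (15.1% to 16.6%), while Ccnd3 made up 28.6% (27.6% to 29.5%) and 13.5% (12.8% to 14.2%). The order of Ccnd2 and Ccnd3 in 2D culture depended on length. Per kilobase of all annotated exons they stood at 8.22 and 7.48 CPM, and per kilobase of the principal transcript, a measure chosen after seeing the data, at 12.2 and 31.1 CPM. In 3D culture Ccnd3 was above Ccnd2 under both measures, at 21.8 against 3.19 and at 90.4 against 4.74 CPM per kilobase.

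Cdk4 (ENSMUSG00000006728, chromosome 10, 127063534 to 127067920), the kinase the D cyclins activate, was among the most abundant of the 10 genes in both libraries and differed by less than 2-fold. It had 6215 counts in 3D culture and 4880 in 2D culture (459 and 276 CPM), a ratio of 1.66 (1.60 to 1.73). Its log2 ratio was 0.14 under total counts, 0.07 under reference genes and -0.37 after adjustment, so its direction was not stable. Cdk6, which serves the same cyclins and is not among the 10 genes, had 1002 and 2210 counts and was 1.69-fold lower in 3D culture (1.57 to 1.82). There were 6.20 Cdk4 counts for each Cdk6 count in 3D culture and 2.21 in 2D culture, but the adjusted values of the genes were -0.37 and -0.08, so this 2.81-fold shift (2.58 to 3.06) turned direction with the adjustment.

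**Figure D3:**
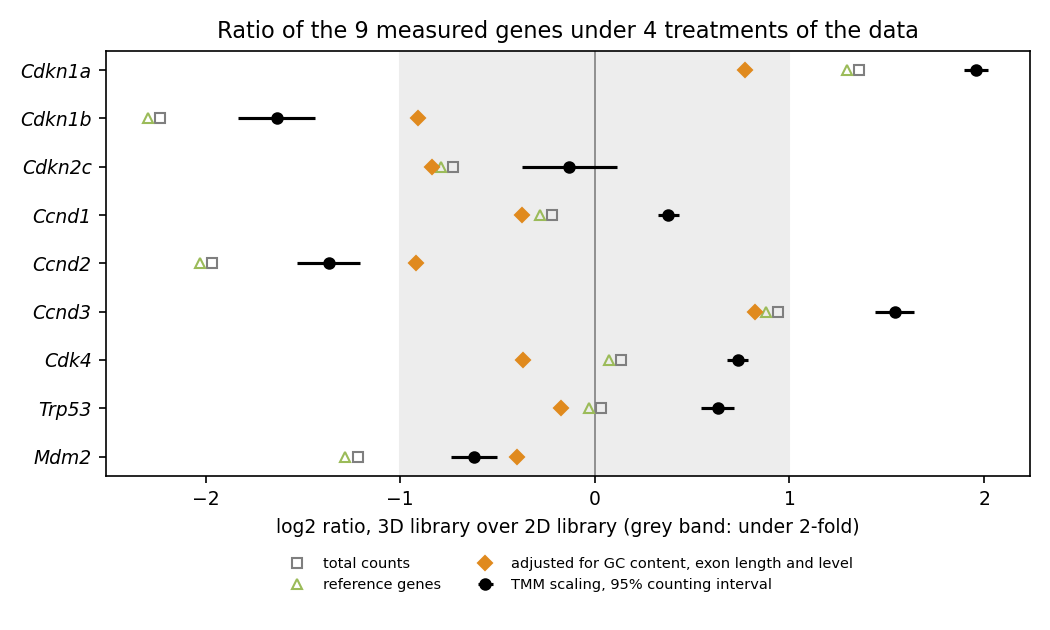
Log2 ratio of the 3D library over the 2D library for the 9 measured genes (rows) under TMM scaling with 95% counting intervals (black), total counts (squares), reference genes (triangles) and after adjustment for GC content, exon length and level (diamonds). Cdkn1a and Ccnd3 lie right of 0 and Cdkn1b and Ccnd2 left of 0 under all 4, whereas Ccnd1, Cdk4 and Trp53 cross 0.

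Trp53 and its ligase gene Mdm2 each differed by less than 2-fold, in opposite directions, under TMM scaling, and the direction of Trp53 was not stable. Trp53 (ENSMUSG00000059552, chromosome 11, 69580359 to 69591873) had 2444 counts in 3D culture and 2062 in 2D culture (181 and 117 CPM), a ratio of 1.55 (1.46 to 1.64). The log2 ratio was 0.03 under total counts, -0.03 under reference genes and -0.17 after adjustment. Mdm2 (ENSMUSG00000020184, chromosome 10, 117688875 to 117710758) had 859 and 1725 counts (63.5 and 97.5 CPM) and was 1.54-fold lower in 3D culture (1.41 to 1.67). Its log2 ratio passed 2-fold under total counts, at -1.22, and under reference genes, at -1.28, and was -0.40 after adjustment. Within a library there were 0.35 Mdm2 counts for each Trp53 count in 3D culture and 0.84 in 2D culture, a 2.38-fold shift (2.15 to 2.64) that was 1.17-fold after adjustment.

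Of the 2 p53 targets among the 10 genes, Cdkn1a was past 2-fold and Mdm2, at 1.54-fold lower, was not. There were 10.2 Cdkn1a counts for each Mdm2 count in 3D culture and 1.71 in 2D culture, a 5.97-fold shift (5.44 to 6.55), or 2.25-fold after the adjustment. Trp53cor1, a noncoding RNA gene also called lincRNA-p21 that lies 11.8 kb from Cdkn1a on the opposite strand, was looked up after the other values were seen. It had 22 counts in 3D culture and 57 in 2D culture and was 1.98-fold lower in 3D culture (1.19 to 3.41), with an adjusted log2 ratio of -0.48.

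**Figure D4:**
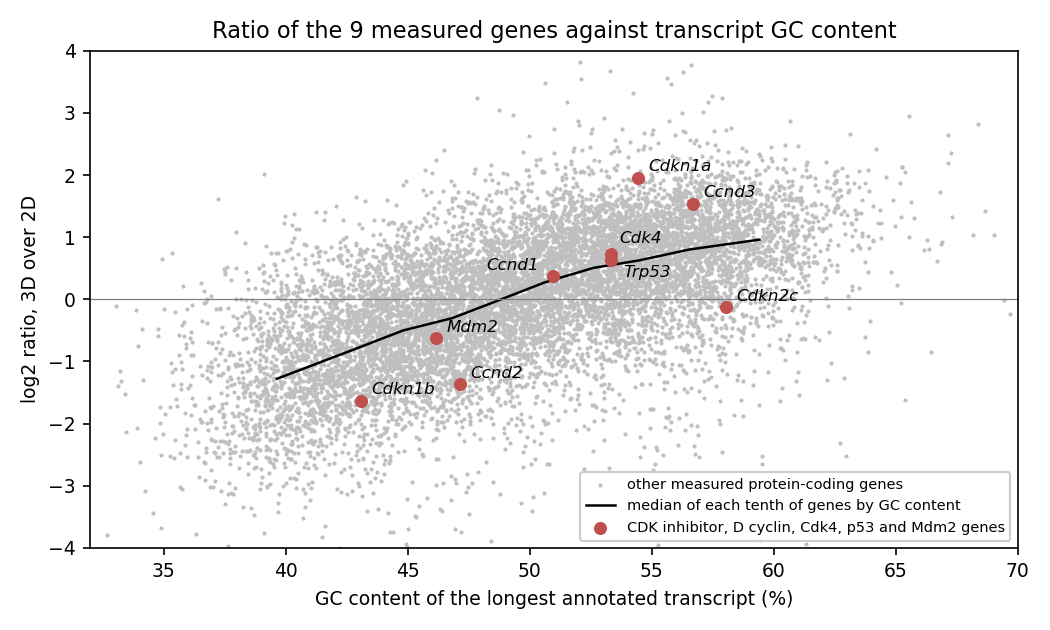
Log2 ratio of the 3D library over the 2D library against the GC content of the longest annotated transcript, in percent, for measured protein-coding genes (grey), with 37 genes outside the axes, the median of each of 10 bins of genes (line) and the 9 genes described here (red). Cdkn1a and Ccnd3 lie above the line, Cdkn1b, Ccnd2 and Cdkn2c below it, and Ccnd1, Cdk4, Trp53 and Mdm2 close to it.

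The remaining genes of the pathway were drawn up as lists and are given by their counts beside those of all measured genes, of which 18.7% were at least 2-fold higher and 20.8% lower under TMM, and 5.59% and 36.5% under total counts. In the list of G1 kinases, E cyclins, pocket proteins and E2F factors, all 21 genes were measured, 0 were at least 2-fold higher in 3D culture, 4 were lower, and the median log2 ratio was -0.75, or -0.20 after adjustment. Under total counts 0 were higher and 14 lower, and under reference genes 0 and 15. The reference-gene scaling placed 545 of its 11469 measured genes past 2-fold upward and 4342 downward. Those numbers are the background for the reference-gene counts of every list. The pocket protein gene Rbl1 had 267 counts in 3D culture and 1486 in 2D culture and was 4.26-fold lower in 3D culture (3.74 to 4.87), with an adjusted log2 ratio of -1.23. The cyclin E gene Ccne2 was 3.27-fold lower (2.60 to 4.14), but its adjusted log2 ratio was -0.04. E2f5 and Tfdp2 were 2.12-fold and 2.06-fold lower, with adjusted log2 ratios of -0.83 and -0.14. Of the abundant genes, the repressive E2f4 had a ratio of 1.61 but an adjusted log2 ratio of -0.37, so its direction turned. The E2F partner Tfdp1 was 1.68-fold lower (1.57 to 1.80; adjusted log2 ratio -0.85).

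Of 21 regulators of p53, all measured, 1 was at least 2-fold higher in 3D culture and 6 were lower, with a median log2 ratio of -0.20 and an adjusted one of -0.21. Under total counts 0 were higher and 8 lower, and under reference genes 0 and 10. Mdm4, which encodes a partner of MDM2 that binds and restrains p53, had 157 counts in 3D culture and 2170 in 2D culture. It was 10.6-fold lower in 3D culture (8.99 to 12.5), and its adjusted log2 ratio was -2.39. Beside Mdm2, there were 0.18 Mdm4 counts for each Mdm2 count in 3D culture and 1.26 in 2D culture, a 6.88-fold shift (5.73 to 8.30), or 3.98-fold after adjustment. The DNA damage kinase genes Atm, Atr and Chek1 were 3.16-fold, 3.15-fold and 4.01-fold lower, and their adjusted log2 ratios were -0.67, -0.07 and -0.74. Chek2, a further kinase gene of this kind, added after its value was seen, was 1.28-fold lower, with an adjusted log2 ratio of -0.02. Crebbp, an acetyltransferase gene for p53 and histones, was 3.00-fold lower (2.52 to 3.57; adjusted log2 ratio -1.30). The ribosomal protein genes Rpl5, Rpl11 and Rpl23, whose products can bind MDM2, had ratios of 0.87, 1.93 and 1.05 and adjusted log2 ratios of -0.25, -0.32 and -0.54, so the direction of Rpl11 and Rpl23 turned.

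Of 30 p53 target genes other than Cdkn1a and Mdm2, 26 were measured, 2 were at least 2-fold higher in 3D culture and 5 lower, with a median log2 ratio of -0.16 and an adjusted one of -0.17. Under total counts 1 was higher and 10 lower, and under reference genes 1 and 11. Phlda3, an inhibitor of AKT signalling, had 274 counts in 3D culture and 86 in 2D culture, a ratio of 4.16 (3.26 to 5.37), and the kinase gene Plk2 had 939 and 533 counts, a ratio of 2.30 (2.07 to 2.57). Their adjusted log2 ratios were 1.13 and 1.29, both still above 2-fold. Under total counts and under reference genes 1 of these 2 genes kept its call, Plk2 being below 2-fold, whereas Cdkn1a kept its own. Trp53inp1, Pmaip1, Rrm2b, Polk and Eda2r were lower by 5.26-fold, 3.25-fold, 3.19-fold, 3.17-fold and 2.73-fold, and none of these 5 was past 2-fold after adjustment. Among the abundant genes, Ccng1 was 1.28-fold lower but had an adjusted log2 ratio of 0.25, and the cell death gene Bax had a ratio of 1.76 (1.61 to 1.94) but an adjusted log2 ratio of -0.57, so the direction of both turned. Zmat3 had a ratio of 1.17 (1.08 to 1.26) and an adjusted log2 ratio of 0.57. Fas, with 3 counts in 3D culture and 6 in 2D culture, Gadd45a, with 7 and 12, Perp, with 3 and 2, and Zfp365, with 0 and 3, were too low to measure.

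**Figure D5:**
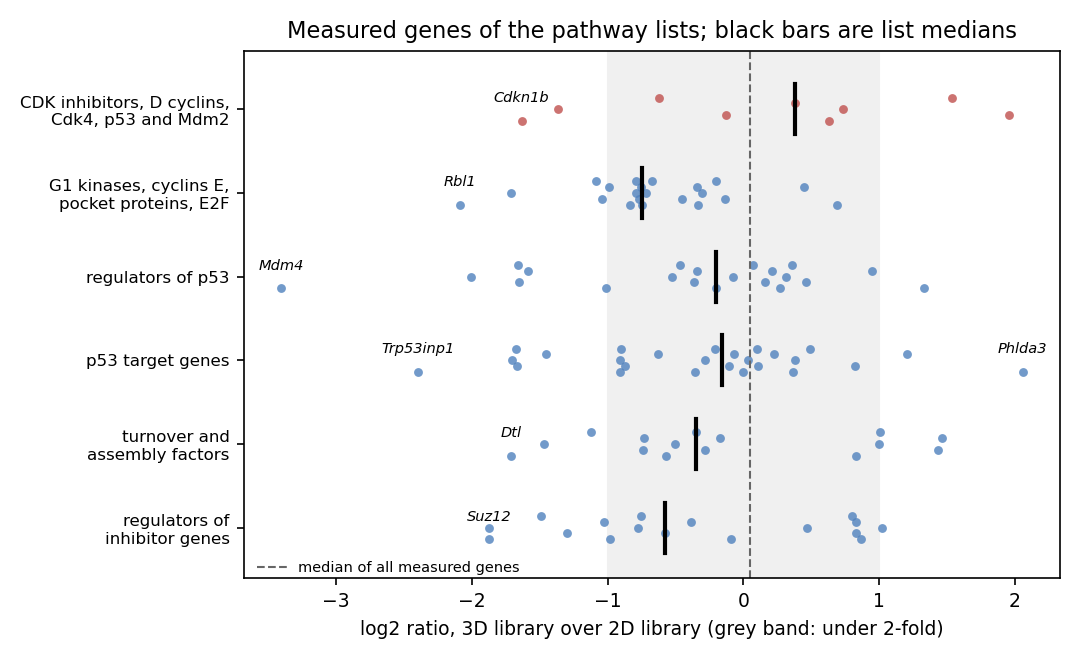
Log2 ratio of the 3D library over the 2D library for each measured gene of the 10 genes described here (red) and of 5 pathway lists (blue), with list medians as black bars, the median of all measured genes as a dashed line and the lowest gene of each list and the highest p53 target gene named. Mdm4 is the lowest gene shown, at -3.40, and Phlda3 the highest, at 2.06.

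Of the factors that degrade or assemble the proteins of this group, 3 of 15 genes were at least 2-fold higher in 3D culture and 3 lower, with a median log2 ratio of -0.35 (adjusted, -0.21). Under total counts 0 were higher and 7 lower, and under reference genes 0 and 8. Cdc37, the co-chaperone that loads CDK4 onto HSP90, had a ratio of 2.76 (2.66 to 2.87) and an adjusted log2 ratio of 0.97. Hsp90ab1 had a ratio of 1.997 (1.97 to 2.02), just below 2-fold and so not counted as higher, and an adjusted log2 ratio of -0.41. Skp2, whose product targets p27, was 2.77-fold lower (2.38 to 3.23), and Dtl, whose product targets p21, was 3.27-fold lower (2.86 to 3.76); after adjustment their log2 ratios were -0.67 and -0.38. Ddb1, the adaptor that DTL uses, had a ratio of 2.71 (2.64 to 2.77; adjusted log2 ratio 0.43). Fbxw7, whose product targets cyclin E, was 2.18-fold lower (1.85 to 2.58; adjusted log2 ratio -0.49). Rbx1, a ubiquitin ligase subunit gene, had a ratio of 2.01 (1.84 to 2.19; 1.64).

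Of 18 genes whose products regulate the transcription of the CDK inhibitor genes, 17 were measured, 1 was at least 2-fold higher in 3D culture and 5 were lower, with a median log2 ratio of -0.57 (adjusted, 0.03). Under total counts 0 were higher and 9 lower, and under reference genes 0 and 10. The Polycomb genes Suz12, Ezh2 and Cbx7, whose products repress Cdkn2a, were 3.66-fold, 2.46-fold and 2.81-fold lower, with adjusted log2 ratios of -1.17, -0.54 and -1.59. The other Polycomb genes of the list, added after their values were seen, were not past 2-fold. Ring1 and Cbx8 had ratios of 1.74 and 1.39 and adjusted log2 ratios of 0.08 and 0.25. Bmi1, Rnf2 and Eed were 1.98-fold, 1.49-fold and 1.71-fold lower, with adjusted log2 ratios of 0.03, 0.65 and -0.61. Dmtf1, an activator of ARF transcription, was 3.66-fold lower (3.09 to 4.37; adjusted log2 ratio -0.55). Sp1, whose product binds GC boxes, was 2.04-fold lower (1.89 to 2.20; -0.39). Myc, a repressor of Cdkn1a, had only 28 counts in 3D culture and 18 in 2D culture, a ratio of 2.03 (1.09 to 3.90; adjusted log2 ratio 1.43). It is the 1 gene counted as higher, and that count was 0 with a mean of at least 5 CPM, with the pseudocount and by the interval bound. Ets2, which can activate p16 transcription, had a ratio of 1.83 (1.71 to 1.95; adjusted log2 ratio 0.31).

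Ordered by CPM per kilobase of exon, the levels in 3D culture ran from Cdkn1a through Cdk4, Ccnd1, Trp53, Ccnd3, Mdm2, Cdkn2c and Cdkn1b to Ccnd2, at 183 to 3.19, with Cdkn2a at 0. In 2D culture the order was Cdk4, Ccnd1, Cdkn1a, Trp53, Mdm2, Cdkn1b, Ccnd2, Ccnd3 and Cdkn2c, with 84.9 for the first, again with Cdkn2a at 0. Without replicates, neighbours in either order cannot be told apart beyond counting error.

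Some counts share exon sequence with a gene on the opposite strand: 1100 of 4709 exon bases of Ccnd1 with LTO1, 361 of 8775 of Ccnd3 with Bysl and 641 of 3249 of Cdk4 with Tspan31. Ccnd2 shares 368 of 9409 exon bases with 9330179D12Rik and 372 with Gm43126. Cdkn1a shares 273 of 3553 with a gene that is absent from the deposited counts. The sources used here do not say whether the counting used the strand, so reads in these stretches cannot be assigned with certainty. LTO1 had 158 counts in 3D culture and 260 in 2D culture, Bysl 1406 and 755, and Tspan31 1184 and 777. The antisense gene 9330179D12Rik had 0 and 2 counts, and Gm43126 had 0 in both libraries. The near-identical processed copies Ccnd3-ps and Trp53-ps had 0 counts in both libraries.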

How the data were processed

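Per the labels' protocols, TRIzol served to extract RNA from untreated cells, and a TruSeq stranded mRNA kit to build the libraries. The deposited values are raw counts of reads per Ensembl gene, made by the authors with Trimmomatic, HISAT2 and HTSeq (build mm10), per the submitters' processing notes. The sources used here give no versions, strand option or annotation release.

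Of 52550 identifiers, 52403 (99.7%) matched GENCODE M21, which gave symbols, positions, exon lengths and GC content; 147 did not. Counts were scaled with TMM (edgeR 4.0.16, R 4.3.3; factors 0.813 for 3D and 1.23 for 2D), and a gene was called measured from a mean of 1 CPM upward. Ratios are 3D over 2D, with exact conditional 95% intervals (scipy 1.17.1), a floor of 3 counts for a 0, and a 2-fold size rule. Shares have Wilson intervals. A natural cubic spline fit (4 degrees of freedom for each property, patsy 1.0.2) gave adjusted log2 ratios for 99.9% of measured genes. The code was tested on simulated data. Members and lists were chosen with earlier results of these data known. Named from each list were up to 5 genes past 2-fold in each direction, by interval bound, and the 3 most abundant; others are named as chosen later, and some results the rule covers are not reported here. The alternatives were DESeq2 1.42.0 size factors, total counts, upper quartile and 22 reference genes for scaling, other filters, a pseudocount, thinning and other thresholds. Under TMM, 7 of the 22 reference genes were themselves at least 2-fold higher in 3D culture and 0 lower. Their median log2 ratio was 0.66, or -0.07 after adjustment.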

Additional observations from a re-analysis of the deposited data

How the results depend on the processing

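Scaling decided how many genes stood on each side. Of 11673 genes under TMM, 2181 were past 2-fold upward in 3D culture and 2426 downward (47.3% of calls higher). Of 11749 genes under total counts the numbers were 657 and 4292 (13.3%), and of 11469 under reference genes 545 and 4342 (11.2%). After adjustment for GC content, exon length and level they were 1364 and 1019 of 11666 genes (57.2%). Relative to TMM, total counts shifted every log2 ratio by -0.60 and reference genes by -0.66. Without a filter 3939 of 15192 genes were lower. Of 11673 genes, a 1.5-fold threshold gave 3701 higher and 3552 lower, and a 4-fold threshold gave 260 higher and 779 lower. Of the 9 genes described here, 1 was at least 2-fold higher under total counts and under reference genes (Cdkn1a), and 3 were lower under each. After adjustment and at 4-fold, 0 of the 9 were higher and 0 lower. At 1.5-fold, 4 of the 9 were higher and 3 lower. Cdkn1a, Cdkn1b, Ccnd2, Ccnd3 and Mdm2 kept their direction under all 9 alternative scalings, filters, pseudocount, thinning and adjustment. Their log2 ratios were 0.77 to 1.98 for Cdkn1a, -2.29 to -0.91 for Cdkn1b, -2.03 to -0.92 for Ccnd2 and 0.82 to 1.56 for Ccnd3. Those of Mdm2 were -1.28 to -0.40. The log2 ratio of Cdkn2c was negative throughout, at -0.84 to -0.11, but its interval under TMM spanned 1 (0.77 to 1.08). The filters leave a gene's ratio unchanged and the pseudocount cannot turn its direction, so the outcome under these settings was fixed in advance. Of 144 counts of list genes past the threshold under the alternatives, 44 moved, either by over 1.5 times or to or from 0. The 144 include counts at the 1.5-fold and 4-fold thresholds. They also include those for Cdkn1c, Cdkn2b and Cdkn2d, which were 0 throughout. No paired analysis was possible because each culture method has 1 library, and no library could be left out.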

Other observations

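Some pathway genes, picked after their values were seen, stood within 2-fold before the adjustment for GC content, exon length and level and past 2-fold after it, or the reverse. Cop1, a p53 ubiquitin ligase gene, had 334 counts in 3D culture and 554 in 2D culture, with a log2 ratio of -0.34 and an adjusted one of 1.72. The S phase activator E2f1 had 545 counts in 3D culture and 781 in 2D culture, a log2 ratio of -0.13 and an adjusted one of -1.02. The p53-induced cell death gene Bbc3 had 351 and 480 counts, with log2 ratios of -0.07 and -1.14, and the stress cytokine gene Gdf15 had 81 and 164 counts, with -0.63 and -1.32. Of those past 2-fold before it, the checkpoint kinase gene Atr moved to -0.07 after adjustment, against -1.65 before it, and the ribonucleotide reductase gene Rrm2b to -0.01, against -1.67. Eda2r, a p53-induced receptor gene, turned to 0.41 after adjustment, against -1.45 before it. Mdm4, Rbl1, Crebbp, Suz12 and Cbx7 were at least 2-fold lower in 3D culture both before and after adjustment.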
